A study of Mus musculus with 15 samples.

Results

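Chemokines, interleukins and their receptors were followed in mouse brown adipose tissue as 73 genes of the 24030 gene symbols in the count table. They were taken by name: symbols that begin with Ccl, Cxcl, Ccr, Cxcr or Il and a digit, with a count of at least 10 in 3 or more libraries. The pattern found 122 symbols, of which 4 receptors (Ccr2, Il7r, Il2rb and Il1rl1) were left out by name and 45 stayed under the count minimum. The 73 members were 17 CC chemokine ligands, 8 CXC chemokine ligands, 8 chemokine receptors, 30 interleukin receptors, decoys and binding inhibitors, 9 interleukin ligands and 1 enzyme, Il4i1, which carries an interleukin's name but degrades amino acids. All 73 entered the tests across genes.

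The tissue came from mice lacking DJ-1 (gene Park7, a redox-sensitive protein) in brown adipose tissue only, and from flox mice, labelled WT. Mice of both genotypes spent 8 weeks either at room temperature or in housing at 29 °C, which is close to the temperature at which a mouse needs no extra heat production. There were 4 libraries of WT at room temperature, 4 of knockout (KO) at room temperature, 4 of WT at 29 °C and 3 of KO at 29 °C. The Cre driver, sex, age and strain, and whether each library is 1 animal, are not given in the sources used here, so p-values measure the spread between libraries, which may be technical. The samples are whole tissue: fewer cells of a type and less RNA per cell cannot be told apart.

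Chemokines are small secreted proteins that guide leukocytes through G-protein-coupled receptors on the migrating cell. CC chemokines such as Ccl2 and Ccl5 mostly attract monocytes, eosinophils and T cells, and the interferon-induced CXC ligands Cxcl9 and Cxcl10 attract activated T cells and NK cells that carry Cxcr3. Many interleukins act through receptors built from a ligand-specific chain and a shared chain, such as Il6st (gp130) for Il6ra or Il2rg for a group of lymphocyte cytokines. For most of these, but not for all members here, the signal passes through JAK kinases and STAT factors. For the IL-1 and IL-18 families it passes through MyD88 and NF-κB. In brown fat both adipocytes and resident stromal, vascular and immune cells make these proteins, and cold exposure and warm housing alter the tissue's immune cells.

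The estimated counts of a library summed to between 23977448 and 38800967. The highest total was that of KO replicate 1 at 29 °C, and the next highest was 26789246. Park7 was at 108 to 112 CPM (counts scaled to a common library size) in WT and 25 to 34.1 in KO at room temperature, and at 104 to 128 in WT and 25.4 to 35.1 in KO at 29 °C, so every library had the level its label calls for. The brown adipocyte markers were high throughout, with a summed level of 10648 to 27144 CPM over 12 genes. At room temperature KO replicates 2 and 4 had 18910 and 17096 CPM, below the 23254 to 27144 of the other 6 libraries. At 29 °C, 3 libraries also carried skeletal muscle transcripts: the summed level of 12 muscle genes was 1514 CPM in replicate 2 of WT, 622 and 1936 CPM in replicates 2 and 3 of KO, and at most 54.6 in the other 12 libraries. Calls were therefore also made without these libraries. KO at 29 °C is then 1 library, whose spread is assumed to be that of the other groups.

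Members differed widely in level, and many were near the limit of counting. Only 38 members reached 10 counts in all 15 libraries, and 7 reached it only at 29 °C (Ccl4, Ccl21c, Cxcl2, Il1r2, Il12rb1, Il18rap and Il22ra2). Il12rb1, a chain of the IL-12 and IL-23 receptors, reached it only in KO at 29 °C. Ccl4 reached it elsewhere only in WT replicate 3 at 29 °C (13 counts), too few libraries for the minimum. Both genes are therefore members only through KO at 29 °C, and their calls there are not independent of the choice of members. Among the 45 symbols under the minimum were Il6, with at most 9 counts in any library, Il10 with at most 9, Il4 with at most 2 and the eosinophil receptor Ccr3 with at most 8, so the ligands of several receptors described here were not measurable at this depth. Ccl3 had 65 counts in 1 library and fewer than 10 in the others.

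Compared per kilobase of exon sequence, the most abundant member of each role, as the mean over the 4 groups, was the eosinophil attractant Ccl11 among CC ligands at 13.4 CPM per kb, Cxcl9 among CXC ligands at 11.5, the skin-homing receptor Ccr10 among chemokine receptors at 2.20, Il15ra among interleukin receptors at 10.2 and the CSF1R ligand Il34 among interleukin ligands at 2.26. Cxcl12, a constitutive stromal chemokine, was at 11.4 CPM per kb and Cxcl14 at 10.1, close to Cxcl9. These lengths count all exons of a gene and understate the level of a gene with several transcript forms. The group with the highest mean was KO at 29 °C for 38 of the 73 members and WT at 29 °C for 24, and the group with the lowest was WT at room temperature for 39. Summed over the 8 chemokine receptors the level was 6.92 to 9.35 CPM in WT and 9.57 to 12.1 in KO at room temperature, 9.52 to 11.7 in WT at 29 °C and 22.6 to 30.4 in KO at 29 °C.

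The first comparison asks what warm housing did in WT tissue. At 29 °C 48 members rose and 6 fell (65.8% and 8.22% of 73), against 35.9% and 32.8% of all 15083 genes tested. The median log2 fold change of the members was 1.32 against 0.06 for all genes. A count of 10 was reached by 7 members only at 29 °C and by 0 only at room temperature. Others reached it at room temperature in too few libraries to be members without those at 29 °C. Among these, Ccl21a, Ccl22, Ccl24, Ccr1, Ccr7, Cxcl1, Cxcr3, Cxcr5, Il18, Il18r1, Il4i1 and Il7 were called higher here. The choice of members therefore favours a rise. Interleukin ligands rose in 7 of 9, chemokine receptors in 7 of 8 with 1 lower, interleukin receptors and inhibitors in 19 of 30 with 2 lower, CC ligands in 10 of 17 with 3 lower, and CXC ligands in 4 of 8. Calls were made by edgeR's quasi-likelihood test with Benjamini-Hochberg adjustment over all genes, at an adjusted p under 0.05, and each log2 fold change is given with its standard error. Without the 3 libraries with muscle transcripts 45 rose and 6 fell.

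The transmembrane chemokine Cxcl16, which also acts as a scavenger receptor, was the clearest of the ligands. Its level was 2.19, 2.28, 2.10 and 2.42 CPM in the 4 WT libraries at room temperature and 8.87, 11, 9.23 and 11.7 at 29 °C, a 4.53-fold rise (log2 fold change 2.18 ± 0.20, adjusted p = 1.0e-07). The groups lay far apart and each library of a group was close to the others. The neutrophil attractant Cxcl1 rose from 0.372, 0.129, 0.462 and 0.130 CPM to 1.56, 1.49, 2.73 and 1.05 (log2 fold change 2.62 ± 0.49, adjusted p = 1.8e-04). Cxcl2, its neighbour on the chromosome, also passed the test but had counts in only 1 of the WT libraries at room temperature, so no fold is given. Cxcl9 rose 2.55-fold, from 13.2 to 18.5 CPM over the libraries to 33.8 to 45.3 (adjusted p = 2.0e-04). Cxcl12 was at 79.4 to 114 CPM at room temperature and 86.0 to 144 at 29 °C, with a log2 difference of 0.14 ± 0.17 that did not pass.

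Of the 17 CC ligands, the 10 that rose included Ccl24, Ccl8, Ccl22, Ccl6, Ccl9, Ccl5 and Ccl2, while Ccl7 (1.41 ± 1.02), Ccl12 (1.24 ± 0.69) and Ccl11 did not pass. Ccl24, an eotaxin made by macrophages, was at 0.289, 0.172, 0.420 and 0.216 CPM at room temperature and 1.42, 2.12, 2.38 and 1.41 at 29 °C (log2 fold change 2.72 ± 0.47, adjusted p = 8.9e-05), with no overlap. Ccl8 rose by 2.81 ± 0.80 on the log2 scale, Ccl22, which attracts CCR4-bearing T cells, by 2.78 ± 0.59, Ccl6 by 2.17 ± 0.59, Ccl9 by 2.03 ± 0.56 and Ccl5 by 1.80 ± 0.44. Ccl2, the main monocyte attractant, went from 1.12, 0.172, 2.35 and 0.216 CPM to 2.81, 5.48, 8.71 and 2.62 (log2 fold change 2.34 ± 0.80, adjusted p = 0.0198). Its replicates were spread more than 10-fold at room temperature; without WT replicate 3 there the log2 fold change was 3.27, and the call was lost without WT replicate 4 at room temperature or WT replicate 3 at 29 °C (highest adjusted p = 0.0594). Ccl4 was called at 1.84 ± 0.75 but lost its call without any one of 4 libraries (WT replicates 2, 3 and 4 at room temperature, WT replicate 3 at 29 °C), by limma-voom and with counts thinned to the smallest total. Ccl11 was at 10.8 to 11.9 CPM at room temperature and 9.43 to 18 at 29 °C and did not pass (0.15 ± 0.17).

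Ccl21a, which attracts CCR7-bearing T cells and dendritic cells to lymphatic vessels and nodes, needs a caution. It was at 0, 0, 0 and 0.866 CPM in WT at room temperature and 8.35, 20.1, 5.74 and 0.0807 at 29 °C, and in KO at 0.388, 0, 0 and 0.609 and then 0.0238, 0.826 and 6.06. In WT 3 libraries were high at 29 °C and the fourth was lower than 1 library at room temperature. Ccl21a and Ccl21c were called in WT (adjusted p = 0.0161 and 0.00643), and neither was called by limma-voom. The transcripts of Ccl21a and Ccl21b are identical at 99.50% of 402 aligned bases, and reads cannot be assigned between these copies with certainty. Summed over 6 copies the level was 0.215 to 1.43 CPM in WT at room temperature, 12.9, 32.8, 9.88 and 0.524 in WT at 29 °C and 0.404, 0.976 and 8.14 in KO at 29 °C. Over the same libraries, the summed level of 8 lymphatic and lymph node markers in the table was 7.73 to 9.97 CPM in WT at room temperature, 21.9 to 35.1 in WT at 29 °C and 10.2 to 17.4 in KO at 29 °C. Their part in the Ccl21a values was not tested.

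Of the 30 interleukin receptors and inhibitors 19 rose. Il10ra, the ligand-binding chain of the IL-10 receptor, went from 1.82, 2.79, 1.80 and 3.16 CPM to 9.50, 11.2, 11.2 and 9.92 (log2 fold change 2.13 ± 0.23, adjusted p = 5.8e-07). Il2rg, the common gamma chain, went from 3.22 to 3.77 CPM over the libraries to 9.40 to 13.3 (1.71 ± 0.20). In both genes all 4 libraries at 29 °C were above all 4 at room temperature. The same held for Il17ra, the shared IL-17 receptor chain (2.53 to 3.99 CPM against 7.67 to 8.23, log2 fold change 1.28 ± 0.14), and for Il4ra, which binds IL-4 and pairs with Il13ra1 for IL-13 (10 to 13.7 against 27.2 to 33.6, 1.32 ± 0.14). Il3ra, the IL-3 receptor alpha chain, rose from 1.49, 1.63, 2.31 and 2.21 CPM to 7.35, 6.80, 8.95 and 8.83 (2.06 ± 0.20, adjusted p = 1.4e-07). Il18rap, the accessory chain for IL-18, rose 6.17-fold and Il1r1, the signalling receptor for IL-1, 2.53-fold. Il22ra2, a soluble decoy for IL-22, passed as well, with at most 2 counts in any WT library at room temperature.

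Interleukin ligands followed the same direction at low levels. Il1b, an inflammasome-processed cytokine, was at 0.289, 0.258, 0.420 and 0.303 CPM at room temperature and 3.02, 2.39, 4.08 and 0.807 at 29 °C (log2 fold change 3.0 ± 0.58, adjusted p = 3.0e-04). Its antisense gene Il1bos had at most 16 counts in a library; the sources used here do not say whether reads were counted by strand. Il18 rose from 0.210 to 0.390 CPM to 1.07 to 1.37 (1.97 ± 0.30), and the alarmin Il33 from 0.130 to 0.671 to 1.53 to 2.87 (2.48 ± 0.52). Il7, a survival factor for lymphocytes, rose by 1.62 ± 0.34 and Il34 by 0.98 ± 0.22. The soluble IL-18 inhibitor Il18bp stayed within 3.42 to 4.78 CPM in both groups (0.13 ± 0.14) and did not pass, nor did the NK-cell growth factor Il15 (-0.36 ± 0.29). The enzyme Il4i1 rose by 2.83 ± 0.63, or 4.0 without WT replicate 1 at room temperature. Among the receptors, Il12rb1 (0.31 ± 0.60) and Il12rb2 (-0.74 ± 0.42) did not pass, and the call of Il18r1 (1.36 ± 0.54) was lost without any one of 4 libraries, WT replicates 3 and 4 at room temperature and WT replicates 1 and 4 at 29 °C.

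The 6 members that fell in WT at 29 °C were 3 epithelial-type CC ligands (Ccl25, Ccl27a and Ccl28), the receptor Ccr10, which binds Ccl27 and Ccl28, and the receptor chains Il6ra and Il15ra. Il6ra, the IL-6-binding chain, was at 4.18, 9.36, 4.36 and 3.16 CPM at room temperature and 0.867, 0.730, 1.14 and 1.13 at 29 °C, 5.44-fold lower (adjusted p = 4.8e-06). Ccr10 was at 5.87, 5.67, 4.32 and 4.67 CPM and then 1.07, 1.46, 1.24 and 1.01, 4.26-fold lower (adjusted p = 3.7e-07). In both receptors the highest warm library was below the lowest library at room temperature by a wide margin. Ccl28 was 3.48-fold lower at under 1 CPM, Ccl27a 1.91-fold (5.93 to 7.90 CPM against 3.15 to 4.54) and Ccl25 1.80-fold (2.64 to 3.43 against 1.49 to 1.73). Il15ra, which presents IL-15 to lymphocytes, was at 50.9 to 62.5 CPM and 27.5 to 41.1, 1.66-fold lower, and lost its call without WT replicate 2 at room temperature or WT replicate 2 or 4 at 29 °C (highest adjusted p = 0.0702). Ccl27a has a near-identical copy, Ccl27b (98.77% over 324 aligned bases), so its level is uncertain. Il6st, the signalling partner of Il6ra, was at 84.5, 100, 93.2 and 87.7 CPM and 86.4, 94.7, 92.4 and 73.4, with a log2 difference of -0.07 ± 0.09 that did not pass.

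**Figure D1:**
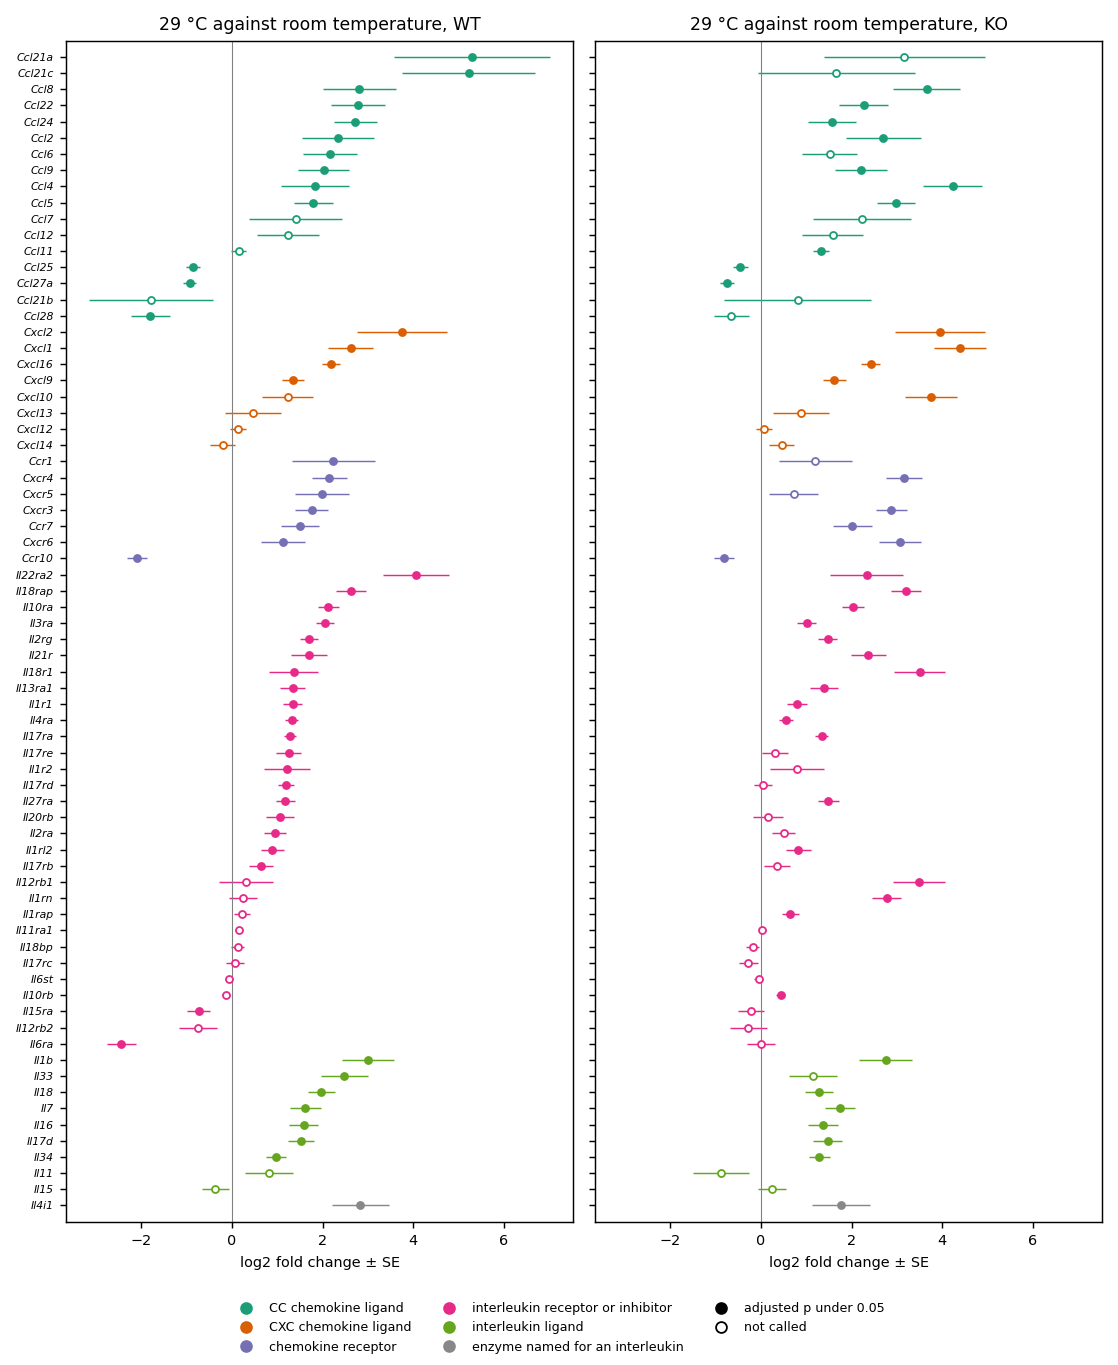
Log2 fold change (x axis, ± standard error) of 29 °C against room temperature in WT (left) and KO (right) for 72 of the 73 members (y axis), coloured by role, with filled points for adjusted p under 0.05. Most points lie to the right of 0 in both panels; Ccr10 (-2.09) and Il6ra (-2.44) lie far to the left in WT, and Il6ra lies at 0.01 in KO.

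Markers of other cell types moved with these changes. From room temperature to 29 °C in WT, the summed level of 14 macrophage markers went from 105 to 142 CPM to 243 to 375 (12 of 14 rose), that of 14 T and NK cell markers from 5.28 to 6.63 to 14 to 18.7 (7 rose), that of 12 endothelial markers from 667 to 843 to 1698 to 2286 (12 rose), and that of 12 brown adipocyte markers from 23254 to 24392 down to 10648 to 11467 (10 fell, 1 rose). Of the markers tested, 5 of 8 for B cells, 5 of 10 for fibroblasts and 6 of 7 for neutrophils and mast cells also rose. Lymphatic and lymph node markers rose in 5 of 7. On these further lists 0 fell. None of the defining markers on these lists was at 0 in all libraries. Their part in the members' changes was not tested.

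In KO tissue 42 members rose with warm housing and 3 fell (57.5% and 4.11%), against 24.3% and 21.7% of all genes, with a median log2 fold change of 1.37 against 0.04. The choice of members favours a rise here too, as 7 reached 10 counts only at 29 °C and others needed these libraries to meet the minimum. Without the libraries with muscle transcripts KO at 29 °C is 1 library, and fewer members and fewer genes over the whole table were called. Without KO replicates 2 and 4 at room temperature 34 rose and 3 fell. This comparison and the others share groups of libraries, so their values are set side by side and were not correlated. Interleukin receptors and inhibitors rose in 17 of 30, CC ligands in 8 of 17 with 2 lower, interleukin ligands in 6 of 9, CXC ligands in 5 of 8 and chemokine receptors in 5 of 8 with 1 lower. Markers moved as well: from room temperature to 29 °C in KO, T and NK cell markers went from a sum of 5.8 to 13.3 CPM to 30.9 to 57.4 (14 of 14 rose) and macrophage markers from 92.6 to 189 to 399 to 586 (12 of 14 rose). Of the fibroblast markers 8 of 10 rose (423 to 542 CPM, then 852 to 1048), of the B cell markers 5 of 8 (2.76 to 3.82, then 6.75 to 17.7) and of the endothelial markers 6 of 12 (560 to 729, then 741 to 1012). Their part was not tested.

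Several values in KO were close to those in WT: the log2 fold changes were 2.42 ± 0.21 in KO and 2.18 ± 0.20 in WT for Cxcl16, 2.03 ± 0.24 and 2.13 ± 0.23 for Il10ra, 1.34 ± 0.15 and 1.28 ± 0.14 for Il17ra, and 2.75 ± 0.58 and 3.0 ± 0.58 for Il1b. Cxcr4 and the 10 members listed after it rose in KO, and of these the interaction, the test of a difference from WT, passed for Cxcl10, Il12rb1 and Cxcr6 only. Cxcr4, the receptor for Cxcl12, was at 0.259, 1.31, 0.443 and 0.650 CPM in KO at room temperature and 5.32, 5.07 and 7.48 at 29 °C (3.16 ± 0.40, adjusted p = 1.6e-05). Cxcl1 rose by 4.39 ± 0.57, Ccl4 by 4.23 ± 0.65, Cxcl10 by 3.75 ± 0.58, Ccl8 by 3.66 ± 0.74, Il18r1 by 3.5 ± 0.56, Il12rb1 by 3.49 ± 0.57, Il18rap by 3.21 ± 0.33, Cxcr6 by 3.06 ± 0.46, Ccl5 by 2.98 ± 0.41 and Cxcr3 by 2.88 ± 0.34. Single libraries moved some of these values with the call kept: without KO replicate 1 at 29 °C the value was 2.69 for Cxcl10, 3.62 for Ccl4 and 2.08 for Il1b, without KO replicate 3 at room temperature 4.47 for Ccl8, and without KO replicate 2 at room temperature 4.25 for Il12rb1. Some folds rest on few counts in KO at room temperature: 5, 2, 3 and 1 for Cxcl1, 3, 1, 3 and 0 for Ccl4, and 1, 4, 2 and 0 for Il12rb1. Outside this list Cxcl2 rose as well, but had 0, 0, 1 and 2 counts there, so no fold is given. The 3 that fell were Ccr10 (-0.81 ± 0.22), Ccl27a (-0.75 ± 0.16) and Ccl25 (-0.45 ± 0.16). The Ccl25 call was lost without any one of 5 libraries, KO replicates 1 and 2 at room temperature and each KO library at 29 °C (highest adjusted p = 0.098). Il6ra did not pass in KO, with 4.87, 2.61, 3.87 and 3.98 CPM at room temperature and 4.59, 3.94 and 2.98 at 29 °C (0.01 ± 0.31). Il33 did not pass in KO (1.15 ± 0.53), nor did Il15ra (-0.22 ± 0.28).

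The effect of the knockout was tested at each temperature. At room temperature none of the 73 members was called by edgeR, DESeq2 or limma-voom; 4 had an unadjusted p under 0.05 in edgeR, as did 1678 of the 15083 genes, and 0.0530% of all genes were called higher and 0.186% lower. The median log2 fold change of the members was 0.13 against 0.01. For Il4ra the difference was 0.01 ± 0.14 and for Il1r1 0.03 ± 0.21. Ccl5 was at 0.331, 0.902, 0.629 and 0.390 CPM in WT and 0.646, 2.19, 0.685 and 1.26 in KO, with overlap, and was short of the threshold (1.08 ± 0.45, adjusted p = 0.397).

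At 29 °C 20 members were higher in KO and 6 lower (27.4% and 8.22%), against 24.7% and 20.0% of all genes tested, with a median log2 fold change of 0.38 against 0.04. The share that rose was close to that of all genes, and the share that fell was smaller. By role, chemokine receptors rose in 5 of 8, CC ligands in 6 of 17 with 1 lower, CXC ligands in 3 of 8 and interleukin receptors and inhibitors in 6 of 30 with 4 lower, while 1 of 9 interleukin ligands, Il11, fell. Without the 3 libraries with muscle transcripts KO is 1 library, and fewer members and fewer genes over the whole table were called. The calls of Ccl8, Ccl24, Ccl25, Ccl28, Cxcl14, Cxcr4, Il10rb, Il11, Il11ra1, Il17rd and Il21r were lost. The removal of muscle transcripts and the smaller group cannot be told apart here.

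**Figure D2:**
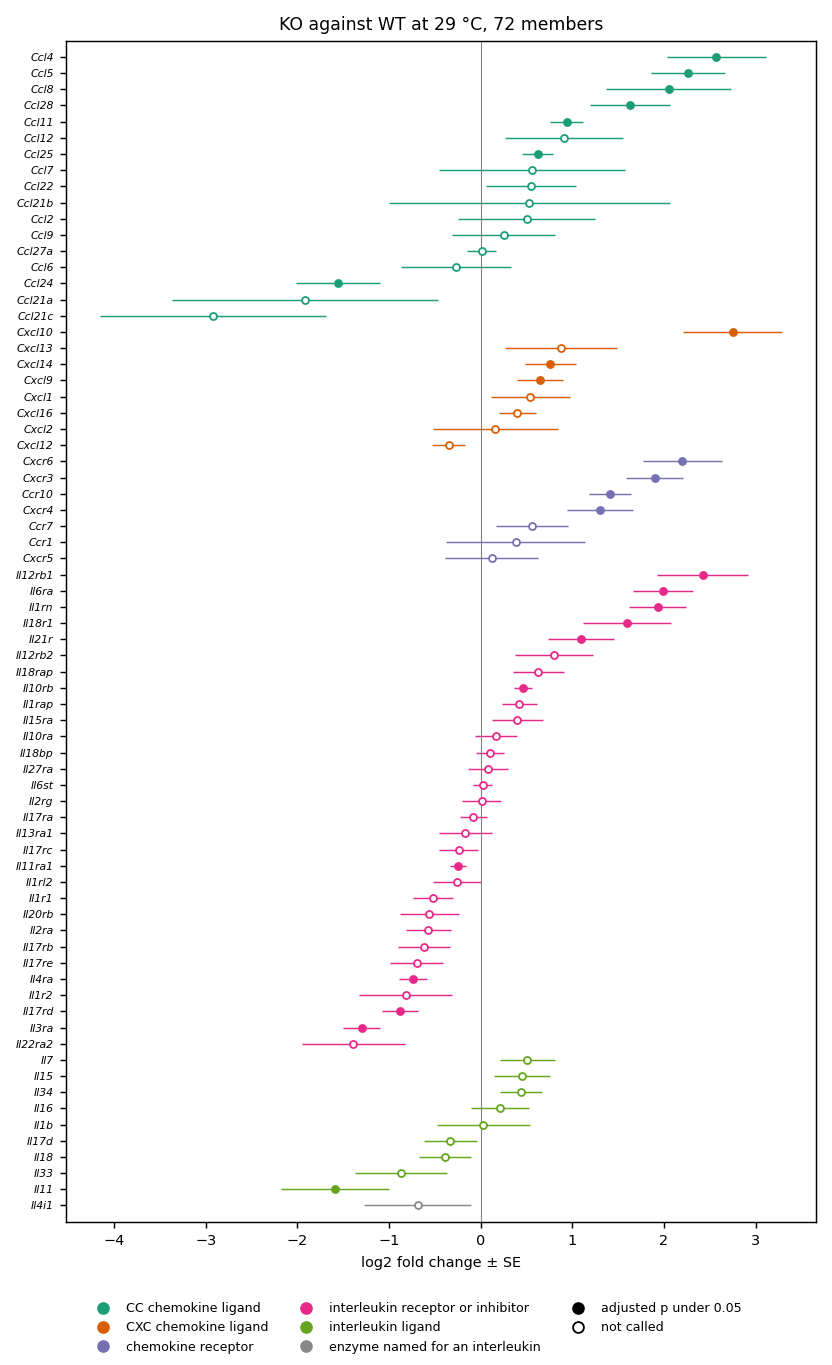
Log2 fold change (x axis, ± standard error) of KO against WT at 29 °C for 72 of the 73 members (y axis), coloured by role, with filled points for adjusted p under 0.05. The called points to the right reach 2.75 (Cxcl10), and the 6 called points to the left run from -1.59 (Il11) to -0.25 (Il11ra1).

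The 3 ligands with the largest rise, Cxcl10, Ccl4 and Ccl5, draw effector T cells and NK cells. Cxcl10 was at 2.63, 3.75, 2.42 and 1.77 CPM in WT and 36.4, 7.51 and 9.70 in KO, 6.75-fold higher (log2 fold change 2.75 ± 0.54, adjusted p = 0.0012). KO replicate 1 was far above the other two, and without it the log2 fold change was 1.70 with the call kept. Ccl5, which T cells and NK cells themselves secrete, was at 1.56, 1.86, 2.04 and 2.42 CPM in WT and 14.6, 5.14 and 8.45 in KO (2.26 ± 0.40, adjusted p = 3.3e-04). Ccl4, another chemokine that such cells secrete, rose by 2.57 ± 0.54, from 0.104 to 0.449 CPM to 0.864 to 2.38, and by 1.97 without KO replicate 1. In each of these genes the lowest KO library was above the highest WT library. Ccl4 met the count minimum only through KO at 29 °C, so its call and separation are not independent of the choice of members. Cxcl9 did not separate in this way: it was at 40.5, 45.3, 33.8 and 40.3 CPM in WT and 99.2, 40 and 48.1 in KO. Its call (0.65 ± 0.25, adjusted p = 0.049) was lost without any one of 12 of the 15 libraries, all but KO replicate 1 at room temperature and KO replicates 2 and 3 at 29 °C, and without KO replicate 1 at 29 °C the log2 fold change was 0.14.

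Cxcl9 and Cxcl10 are neighbours on the minus strand of chromosome 5, at 92321347 to 92328079 and 92346638 to 92348889 of GRCm38 (mm10), and are known targets of interferon. Their promoters, and that of Cxcl14 on chromosome 13, are shown because they are the 3 windows, among 13 available for the 20 members higher in KO at 29 °C, that hold the core of an interferon-stimulated response element (ISRE core, GAAANNGAA). Each line is the 250 bases before the RefSeq gene start on GRCm38.p6, 5′ to 3′ on the gene's strand, with motif matches in capitals.
Cxcl9, minus strand, chr5:92328080-92328329: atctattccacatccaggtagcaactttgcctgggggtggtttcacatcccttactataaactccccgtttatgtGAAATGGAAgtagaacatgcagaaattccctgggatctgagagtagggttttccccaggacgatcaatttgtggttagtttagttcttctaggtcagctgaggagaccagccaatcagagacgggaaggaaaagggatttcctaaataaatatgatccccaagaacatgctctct
Cxcl10, minus strand, chr5:92348890-92349139: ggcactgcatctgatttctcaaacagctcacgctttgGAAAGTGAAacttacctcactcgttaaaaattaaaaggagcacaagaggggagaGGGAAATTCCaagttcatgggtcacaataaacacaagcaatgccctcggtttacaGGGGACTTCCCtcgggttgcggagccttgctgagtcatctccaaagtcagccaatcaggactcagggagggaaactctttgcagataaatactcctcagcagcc
Cxcl14, minus strand, chr13:56296552-56296801: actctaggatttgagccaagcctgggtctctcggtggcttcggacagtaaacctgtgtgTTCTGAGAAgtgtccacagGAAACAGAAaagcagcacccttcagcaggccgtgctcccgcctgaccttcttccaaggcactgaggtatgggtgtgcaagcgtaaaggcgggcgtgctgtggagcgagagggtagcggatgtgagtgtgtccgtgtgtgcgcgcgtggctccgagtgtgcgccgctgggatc

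The capitals mark the ISRE core in all 3, a gamma-activated site (GAS, TTCNNNGAA) before it in Cxcl14, and NF-κB motifs nearer the start in Cxcl10. Counted from the gene start, the ISRE core lies at -175 to -167 in Cxcl9, -213 to -205 in Cxcl10 and -172 to -164 in Cxcl14, and the Cxcl10 NF-κB matches lie at -159 to -150 and, as 2 overlapping matches, from -104 to -94. RefSeq windows of 300 bases were available for 52 of the 73 members, and both strands were searched. The ISRE core was in 5 of these 52 windows and in 8.57% of 27025 promoters of all genes; GAS was in 4 and 8.47%, NF-κB in 8 and 8.18%, and the cAMP response element (TGACGTCA) in 0 and 1.88%. These are matches of letters and do not show binding.

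Of the 8 chemokine receptors 5 rose, Cxcr3, Cxcr4, Cxcr6 and Ccr10 among them. Cxcr3, the receptor for Cxcl9 and Cxcl10, was at 0.763, 0.929, 0.484 and 1.05 CPM in WT and 2.99, 2.14 and 3.88 in KO (log2 fold change 1.90 ± 0.31, adjusted p = 1.6e-04). Cxcr6, the receptor for Cxcl16, was at 0.763, 0.763, 0.276 and 1.01 CPM and 4.63, 1.73 and 3.29 (2.20 ± 0.43, adjusted p = 6.3e-04). For both receptors the groups did not overlap, and no single library removed the call. The ligand Cxcl16 itself was at 8.87 to 11.7 CPM in WT and 9.12 to 17.7 in KO and did not pass (0.40 ± 0.20). Cxcr4 rose by 1.30 ± 0.36, from 1.69 to 2.91 CPM to 5.07 to 7.48, while its ligand Cxcl12 did not pass (-0.35 ± 0.18). Ccr10 was at 1.01 to 1.46 CPM in WT and 2.53 to 4.43 in KO, without overlap (adjusted p = 1.4e-04). The B cell receptor Cxcr5 (0.12 ± 0.51), the node-homing receptor Ccr7 (0.56 ± 0.39) and the monocyte receptor Ccr1 (0.38 ± 0.76) did not pass.

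Interleukin receptor genes moved both ways. Il12rb1 was at 0.173, 0.166, 0.207 and 0.0807 CPM in WT and 1.24, 0.676 and 0.658 in KO (2.42 ± 0.50, edgeR adjusted p = 0.00103). Because Il12rb1 met the count minimum only through KO at 29 °C, this call is not independent of the choice of members. Its partner chain Il12rb2 did not pass (0.80 ± 0.43). Il18r1 rose by 1.60 ± 0.48 and Il21r by 1.09 ± 0.36, but the first call was lost without KO replicate 1 (adjusted p = 0.0686) and the second without KO replicate 3 (adjusted p = 0.0905). Il1rn, the secreted antagonist of the IL-1 receptor, was at 1.07, 2.19, 1.76 and 1.49 CPM in WT and 7.65, 3.94 and 7.10 in KO (1.93 ± 0.31, adjusted p = 1.2e-04), while Il1b (0.03 ± 0.51) and Il1r1 (-0.52 ± 0.22, adjusted p = 0.0617) did not pass. Il10rb, shared by the receptors of IL-10, IL-22 and interferon lambda, was at 38.0, 33.4, 30.4 and 28.6 CPM and 43.9, 47.4 and 43.8, a rise of 1.38-fold (adjusted p = 0.00119); Il10ra did not pass (0.17 ± 0.23). Il6ra was at 0.867, 0.730, 1.14 and 1.13 CPM in WT and 4.59, 3.94 and 2.98 in KO, 3.98-fold higher (adjusted p = 1.8e-04), with Il6st at 73.4 to 94.7 and 79.6 to 93.9 (0.02 ± 0.10).

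The receptor chains that fell were Il3ra, Il4ra, Il17rd and Il11ra1. Il3ra was at 7.35, 6.80, 8.95 and 8.83 CPM in WT and 2.85, 2.74 and 4.16 in KO, 2.46-fold lower (adjusted p = 1.1e-04). Il4ra was at 27.2, 30.4, 31.7 and 33.6 CPM and 17.9, 13.9 and 23.2, 1.67-fold lower (adjusted p = 0.001). Il17rd, a co-receptor that also restrains FGF signalling, was at 9.98, 7.97, 5.56 and 7.06 CPM and 4.30, 4.09 and 4.05, 1.84-fold lower (adjusted p = 0.00177). In these 3 genes every KO library was below every WT library. Il11ra1 was 1.19-fold lower (47.6 to 56.6 CPM against 38.7 to 44.9), and its call was lost without WT replicate 3 or KO replicate 1 or 2 (highest adjusted p = 0.167). A copy, Il11ra2, matches it at 99.00% of 1299 aligned bases, so reads of the pair cannot be told apart with certainty. Il11, the ligand, was under 1 CPM in every library, and its call (-1.59 ± 0.59) was lost without any one KO library at 29 °C and by DESeq2 and limma-voom. Il11 met the count minimum only with WT replicates 1 and 2 at 29 °C (22 and 13 counts). Its call is therefore not independent of the choice of members.

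Among the other CC ligands, none of the monocyte attractants Ccl2, Ccl7 and Ccl12 was called. Ccl2 was at 2.81, 5.48, 8.71 and 2.62 CPM in WT and 11.8, 3.76 and 5.27 in KO (0.50 ± 0.75), and Ccl6 (-0.27 ± 0.60) and Ccl9 (0.25 ± 0.56) did not pass either. Ccl8, on the same stretch of chromosome 11, was at 1.21, 2.36, 4.32 and 3.15 CPM in WT and 16.5, 8.22 and 9.49 in KO (2.05 ± 0.68, adjusted p = 0.0257); the groups did not overlap, but the call was lost without WT replicate 1 or KO replicate 1 at 29 °C (highest adjusted p = 0.104) and by DESeq2. Ccl11 was at 9.43, 12.5, 18 and 10.8 CPM in WT and 27.8, 20.2 and 24.7 in KO, 1.91-fold higher (adjusted p = 5.4e-04), whereas Ccl24, the other eotaxin, was at 1.42, 2.12, 2.38 and 1.41 and 1.09, 0.150 and 0.554, 2.95-fold lower (log2 fold change -1.56, adjusted p = 0.0119), with a log2 fold change of -2.35 without KO replicate 1 and the call kept. Both bind the eosinophil receptor Ccr3, which was under the count minimum. Ccl25 was 1.53-fold higher in KO and Ccl28 3.10-fold. Cxcl14, which adipocytes secrete, was at 14.4, 19.3, 14.8 and 9.72 CPM in WT and 20.5, 15.4 and 38.1 in KO (0.76 ± 0.28, adjusted p = 0.0432); the groups overlapped, and the call was lost without any one of 9 libraries (WT replicates 2 and 3 and KO replicates 2, 3 and 4 at room temperature, WT replicates 1, 3 and 4 and KO replicate 3 at 29 °C), with a log2 fold change of 0.30 without KO replicate 3.

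**Figure D3:**
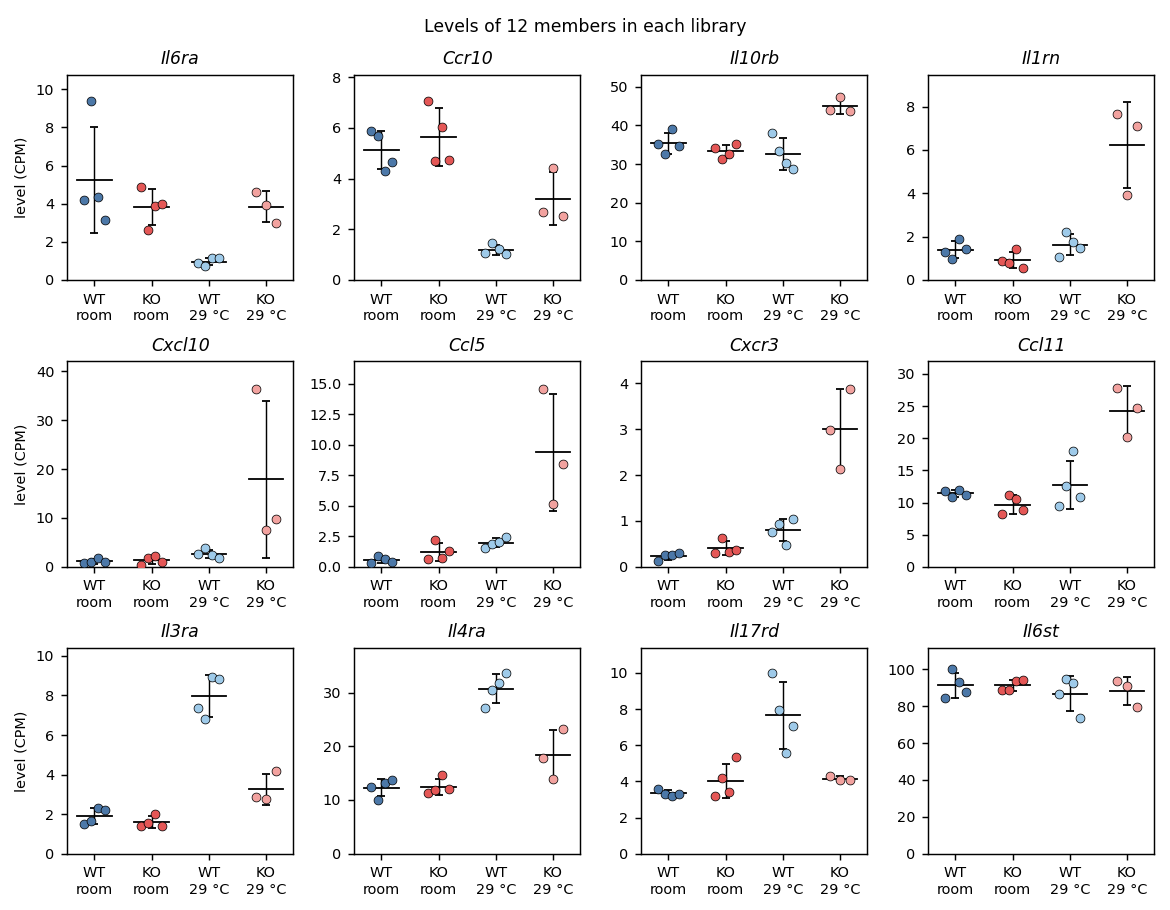
Level in CPM (y axis) of 12 members in each library of the 4 groups (x axis); bars give the mean and the SD. In KO at 29 °C all 3 libraries lie above every other library for Cxcl10, Ccl5, Cxcr3, Ccl11, Il1rn and Il10rb; the WT libraries at 29 °C lie below all others for Il6ra and Ccr10 and above all others for Il3ra, Il4ra and Il17rd.

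Markers of other cell types differed between the genotypes at 29 °C as well. The summed level of 14 T and NK cell markers was 14 to 18.7 CPM in WT and 30.9 to 57.4 in KO (13 of 14 rose), that of 14 macrophage markers 243 to 375 and 399 to 586 (5 rose, 2 fell), that of 8 B cell markers 3.27 to 8.84 and 6.75 to 17.7 (4 rose), and that of 10 fibroblast markers 541 to 937 and 852 to 1048 (4 rose, 1 fell). The 12 endothelial markers summed to 1698 to 2286 CPM in WT and 741 to 1012 in KO (12 of 12 fell), and 12 brown adipocyte markers to 10648 to 11467 and 16774 to 20194 (7 rose, 1 fell). Of 7 neutrophil and mast cell markers tested, 0 were called by edgeR. The part of these cell types in the members' changes was not tested.

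The interaction asks whether the knockout's effect differed between the temperatures. It was called for 8 members with a higher value at 29 °C and 3 with a lower one (11% and 4.11%), against 16.0% and 12.3% of all genes, with a median of 0.18 against 0.01. The 11 were Il12rb1 (3.18 ± 0.87), Il1rn (2.54 ± 0.45), Cxcl10 (2.52 ± 0.81), Il6ra (2.45 ± 0.44), Cxcr6 (1.93 ± 0.67), Ccr10 (1.28 ± 0.30), Ccl11 (1.17 ± 0.25), Il10rb (0.55 ± 0.13), Il4ra (-0.76 ± 0.21), Il3ra (-1.05 ± 0.29) and Il17rd (-1.15 ± 0.27). The call of Cxcl10 was lost without any one of 6 libraries (WT replicate 3 and KO replicate 4 at room temperature; WT replicates 1, 3 and 4 and KO replicate 1 at 29 °C), and that of Cxcr6 without any one of 10. The other 9 calls held without any one library, and that of Il12rb1 was at 3.94 without KO replicate 2 at room temperature. Il12rb1 met the count minimum only in KO at 29 °C, so its interaction is not independent of the choice of members. Without the libraries with muscle transcripts KO at 29 °C is 1 library, and the interaction calls of Il10rb and Il17rd were lost.

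The called members had 3 shapes over the groups. Il6ra and Ccr10 were similar in WT and KO at room temperature, fell in WT at 29 °C and were higher in KO than in WT there: for Ccr10 the levels were 4.32 to 5.87 CPM in WT and 4.68 to 7.07 in KO at room temperature, 1.01 to 1.46 in WT at 29 °C and 2.68, 4.43 and 2.53 in KO at 29 °C. Ccl11, Il10rb, Il1rn, Il12rb1, Cxcl10 and Cxcr6 were highest in KO at 29 °C, where every library exceeded every library of the other groups. They were taken from the members with a called interaction, so this separation is partly built in. Its share over all genes was not counted. Il12rb1 also met the count minimum only through that group. Il3ra, Il4ra and Il17rd were highest in WT at 29 °C, and in KO at 29 °C Il17rd lay at 4.05 to 4.30 CPM, within its range in KO at room temperature (3.19 to 5.32). Ccl5 and Cxcr3, called in KO at 29 °C, had interaction values of 1.18 ± 0.61 and 1.11 ± 0.51 that did not pass, so for them a difference between the temperatures is not shown. The shapes were named after the values were seen.

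**Figure D4:**
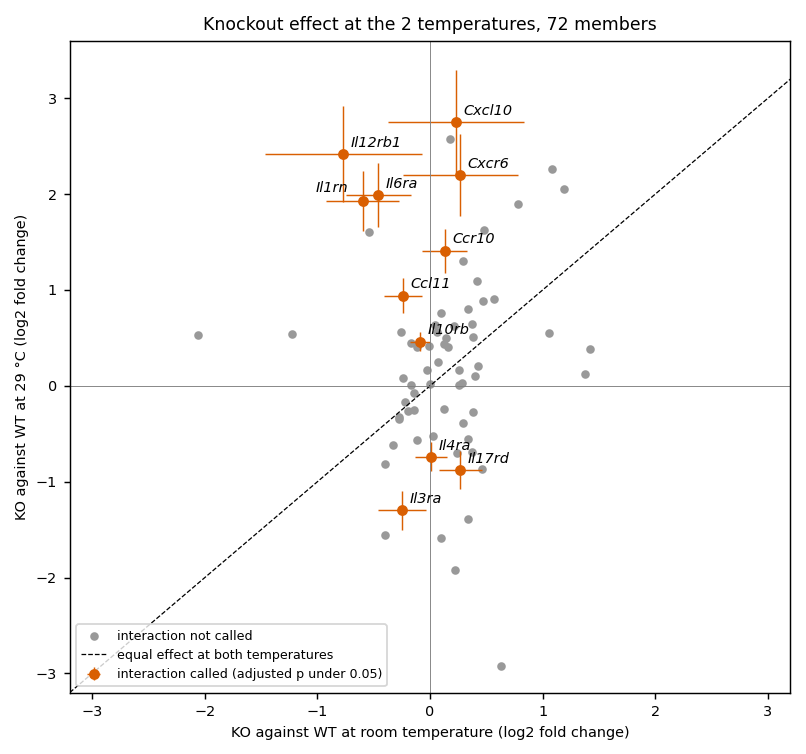
Log2 fold change of KO against WT at 29 °C (y axis) against that at room temperature (x axis) for 72 of the 73 members; the dashed line marks equal effects, and orange points with standard errors are the 11 members whose interaction was called. The 8 positive ones lie above the line and Il3ra, Il4ra and Il17rd below it.

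Members that lie close together on a chromosome did not all move alike. Within 300 kb of each other on chromosome 11 lie Ccl2, Ccl7, Ccl11, Ccl12 and Ccl8 (82035571 to 82116799 of GRCm38) and Ccl5, Ccl9, Ccl6 and Ccl4 (83525778 to 83664683). In KO against WT at 29 °C Ccl11 and Ccl8 rose in the first group and Ccl2, Ccl7 and Ccl12 were not called; in the second Ccl5 and Ccl4 rose and Ccl9 and Ccl6 were not called. On chromosome 7 Il4ra fell and Il21r rose. Ccl2, Ccl7, Ccl12, Ccl6 and Ccl9 were spread in the same libraries at room temperature. Ccl7 was at 1.61, 0.258, 5.16 and 0.260 CPM in WT and 0.560, 0.632, 4.19 and 0.691 in KO, with WT replicate 3 and KO replicate 3 high. Ccl6 was at 7.65, 2.83, 10.6 and 3.12 CPM and 4.48, 5.65, 17.3 and 4.06 in the same order, high in the same replicates. These 5 genes were singled out after their values were seen.

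**Figure D5:**
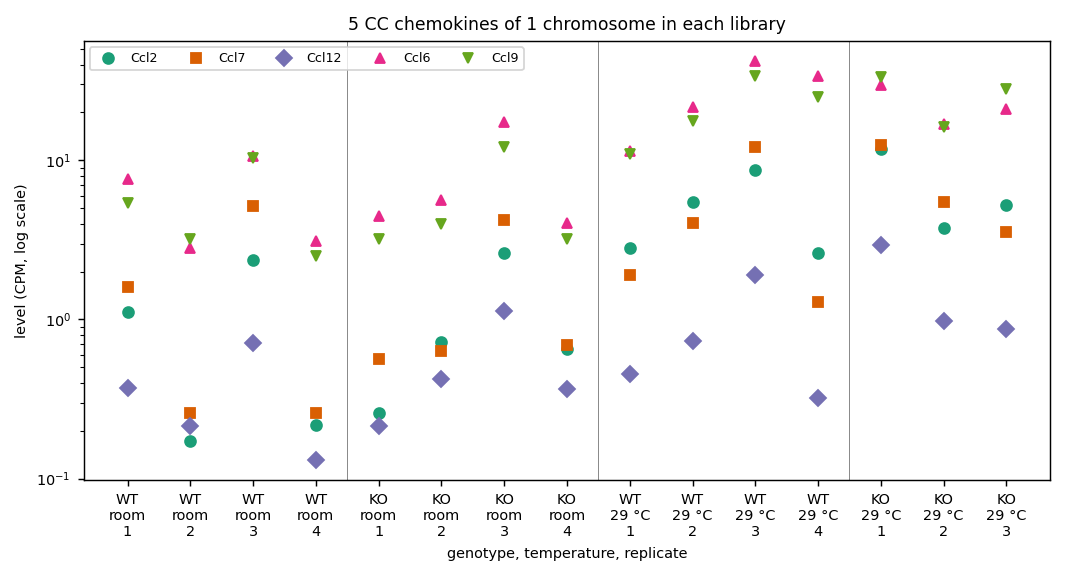
Level in CPM (y axis, log scale) of Ccl2, Ccl7, Ccl12, Ccl6 and Ccl9 in each of the 15 libraries (x axis: genotype, temperature, replicate). At room temperature WT replicates 1 and 3 and KO replicate 3 are high for most of these genes, for example Ccl6 at 17.3 in KO replicate 3.

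Other genes of the same pathways were taken from fixed lists. Their counts are to be read beside the shares of all genes tested that rose and fell. These shares were 35.9% and 32.8% with warm housing in WT and 24.3% and 21.7% in KO. In KO against WT at 29 °C they were 24.7% and 20.0%. Of 17 further chemokine genes, 10 rose and 3 fell with warm housing in WT, 6 and 1 in KO, and 3 rose and 2 fell in KO against WT at 29 °C. Ackr3, a scavenger of CXCL12, had means of 133 ± 27.8 CPM in WT and 73.6 ± 29.6 in KO at room temperature (SD, n = 4), 36.7 ± 7.83 in WT at 29 °C (n = 4) and 106 ± 10.8 in KO at 29 °C (n = 3), with an interaction of 2.38 ± 0.38 (edgeR adjusted p = 6.0e-04). Xcl1, a ligand made by NK cells and T cells, rose in KO at 29 °C (1.84 ± 0.42) and Cmtm3 fell (-0.91 ± 0.16). Rarres2, the precursor of the adipokine chemerin, rose with warm housing by 2.43 ± 0.22 in WT and 1.91 ± 0.22 in KO.

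Of 23 JAK, STAT and SOCS-family genes, 11 rose and 5 fell with warm housing in WT, 5 and 3 in KO, and 6 rose and 4 fell in KO against WT at 29 °C. Jak3, the kinase that binds Il2rg, fell in KO at 29 °C (-0.76 ± 0.10), as did Tyk2 (-0.75 ± 0.13), while Stat5b rose (0.45 ± 0.07); the interaction was called for all 3. Of 28 genes of the IL-1, Toll and NF-κB route, 14 rose and 7 fell with warm housing in WT, 12 and 3 in KO, and 6 rose and 6 fell in KO against WT at 29 °C. In KO against WT at 29 °C the shares of both lists were close to those of all genes (24.7% higher and 20.0% lower). The IκB kinase Ikbkb (-0.73 ± 0.12) and the IL-1 receptor inhibitor Sigirr (-0.76 ± 0.15) fell there and Casp1, the caspase that cleaves pro-IL-1β and pro-IL-18, rose (1.33 ± 0.28). With warm housing in WT the pore-forming Gsdmd rose by 2.23 ± 0.18 and Irak1 fell by 0.80 on the log2 scale.

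Of 14 tested genes of gp130-type and colony-stimulating factor signalling, 11 rose and 1 fell with warm housing in WT, 10 and 1 in KO, and 0 rose and 3 fell in KO against WT at 29 °C. The 3 were Csf2rb, the shared beta chain that pairs with Il3ra (-0.80 ± 0.16, from 29.2 ± 3.28 to 16.8 ± 2.29 CPM, SD, n = 4 and n = 3), Clcf1 (-1.17 ± 0.25) and the oncostatin M receptor Osmr (-0.93 ± 0.24). Of 23 genes of chemokine receptor signalling and leukocyte adhesion, 15 rose and 4 fell with warm housing in WT, 13 and 3 in KO, and 7 rose and 6 fell in KO against WT at 29 °C. The leukocyte GTPase Rac2 (1.32 ± 0.22) and the integrin Itgal (1.65 ± 0.30) rose there, and the G-protein subunit Gnb2 fell (-0.43 ± 0.08). None of the genes on these 5 lists was called by edgeR in KO against WT at room temperature. Over all genes tested only 0.0530% were called higher and 0.186% lower there, so this says little about the lists.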

How the data were processed

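Whole brown adipose tissue RNA of 15 libraries was read as paired ends on a BGIseq500, per the labels' protocols. Per the submitters' processing notes, reads were aligned to mm10 with STAR 2.7.10a, quantified with RSEM 1.2.28, and DESeq2 1.3.40 served for testing; the sources used here do not name the annotation. The deposited values are the authors' expected counts per gene symbol, 7.26% of them with decimals, and were rounded to whole counts. Genes passing filterByExpr (minimum count 10, by group) were scaled by TMM and fitted in 1 model of 4 groups (11 residual degrees of freedom) with edgeR 4.0.16 under R 4.3.3 (glmQLFit and glmQLFTest, robust), with Benjamini-Hochberg adjustment over all 15083 genes and calls at 0.05. Libraries were grouped by title. The 3 fits run as alternatives were DESeq2 1.42.0, voom of limma 3.58.1 and a replicate block; filters, scaling and left-out libraries were also varied, and the fit was tested on simulated data. Lengths and neighbours come from GENCODE M21 (GRCm38), which held 72 of the 73 members, and promoters from RefSeq. The members, the lists and the rule for named genes (called members, up to 12 a direction by fold change, and a fixed set) were chosen with earlier results of these data known; any gene named outside that rule was chosen after its values were seen. The values of 1 member are not reported here, though counts of members include it. With 23977448 counts or more in a library, members under 1 CPM rest on few counts. Values are in CPM: counts per library size after TMM scaling.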

Additional observations from a re-analysis of the deposited data

Results flagged for a closer look

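In groups of 4 libraries, 7 values stood far from the other 3 (a gap to the nearest above Dixon's 95% critical value) among 150 groups, 3 for each of 49 members and for Park7, where chance gives about 1 in 20. They were Ccl21a at 0.866 CPM in WT replicate 4 at room temperature, Ccl6 at 17.3 and Ccl9 at 12.1 in KO replicate 3 at room temperature, Il11ra1 at 56.6 in WT replicate 3 at 29 °C, Il15 at 6.1 in WT replicate 2 at room temperature and at 1.57 in WT replicate 4 at 29 °C, and Il1r1 at 12 in WT replicate 3 at room temperature. Ccl6 and Ccl9 are neighbours and stood out in the same library.

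The effect of the knockout differed between the temperatures, by the interaction test over all genes, in 11 members. On the log2 scale the difference was 3.18 for Il12rb1, 2.54 for Il1rn, 2.52 for Cxcl10, 2.45 for Il6ra, 1.93 for Cxcr6, 1.28 for Ccr10, 1.17 for Ccl11, 0.55 for Il10rb, -0.76 for Il4ra, -1.05 for Il3ra and -1.15 for Il17rd.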

How the results depend on the processing

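Counts of members called stayed within 1.5 times the reported value in every setting run except 2: without the 3 libraries with muscle transcripts 16 members, not 26, were called in KO against WT at 29 °C, and at an adjusted p under 0.01 the interaction was called for 6, not 11. Fits that each lacked 1 of the 15 libraries gave 0 to 0 members in KO against WT at room temperature, 21 to 27 at 29 °C, 47 to 55 for housing in WT, 40 to 48 for housing in KO and 9 to 14 for the interaction. Of the calls, 19 of 26, 46 of 54, 37 of 45 and 9 of 11 in the last 4 held without any 1 library. Those kept in all the other fits were 14, 46, 32 and 7, though 1 of these fits leaves 1 library of KO at 29 °C. No called member changed sign. RLE scaling gave 25, 54, 45 and 11 calls in these 4, DESeq2 26, 53, 47 and 12, and limma-voom 28, 49, 49 and 9. Over all genes, KO against WT at room temperature had 36 calls by edgeR and 237 by DESeq2. Replicate numbers did not pair the libraries: over 21 same-numbered pairs the correlation of deviations ran from -0.276 to 0.33 (median 0.0378). With the replicate block the counts were 0, 24, 52, 47 and 10. Counts thinned to the smallest total, an alternative chosen after seeing the data, gave 0, 25, 50, 43 and 11. Depth limits the 7 members with 10 counts only at 29 °C and the 45 symbols under the minimum.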
